A study of Mus musculus with 15 samples.

Results

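Tumors of the chemically induced lines CT2A and GL261 were compared with tumors of the genetically engineered lines 005 and Mut3. The tumors were assigned to a side by the line named in their labels, which gave 6 tumors against 6, or 12 of the 15 samples sequenced. Each line contributed 3 mice and carried the same weight, and the 3 samples of naïve brain served as background. RNA was taken from end-stage tumors grown in the brains of immune-competent C57BL/6 mice, 6 to 8 weeks old, and gene expression was measured by RNA sequencing of the bulk tissue. CT2A (p53 wild type) and GL261 (p53 mutant) arose after methylcholanthrene treatment of C57BL/6 mice. The 005 line carries activated H-ras and AKT on a p53+/- background, and Mut3 was made by inactivating NF1 and p53. All 4 lines had been transduced with a retroviral vector for GFP and firefly luciferase. The number of cells injected per mouse was 500000 for Mut3 and 100000 for each of the other lines.

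Several features went with the side and cannot be told apart from it. CT2A and GL261 had been cultured with serum, whereas 005 and Mut3 had been cultured without serum and with EGF and FGF-2. Each side was represented by 2 lines, and each line was a single line, so p-values measure the spread between mice that carried the same line and not the spread between independently derived tumors.

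Tumors of this kind are mixtures of malignant cells, brain cells and infiltrating immune cells. Interferons are secreted proteins that act through surface receptors, JAK kinases and STAT factors, and they raise a large group of antiviral genes in the receiving cell. Type I interferons act mainly through a complex of STAT factors with IRF9 and induce genes such as Ifit1 and Isg15, while interferon-gamma, made by T and NK cells, acts through a STAT dimer and induces guanylate-binding proteins, immunity-related GTPases and Cxcl9. Malignant glial cells also keep parts of the programs of neural stem cells or of mesenchymal cells, and these programs are often used to describe gliomas.

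Expression is given as CPM, the count of a gene scaled to the total of its library after TMM normalization between samples. A level of 3 counts, the lowest level treated as measurable, corresponded to between 0.214 and 0.622 CPM in the tumors, and this floor covers counting error only. Total counts ranged from 5380395 to 8825088 in the chemically induced tumors and from 7525006 to 13130158 in the engineered tumors. Among the engineered tumors, 005 replicate 3 stood apart, with a summed level of the neuron gene list of 5491 CPM against 84.1 to 976 CPM in the other 5 and 6756 to 8548 CPM in naïve brain. Its mitochondrial share was 17.8% of counts, within the 15% to 24% of naïve brain. 005 replicate 2 had the highest summed level of the T and NK cell list, 1297 CPM against at most 446 CPM in the other engineered tumors. The main counts are given with and without these tumors. In bulk RNA, fewer cells of a type and less RNA per cell cannot be told apart.

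Of 17481 genes tested, 884 were called (edgeR quasi-likelihood test, p adjusted by Benjamini-Hochberg under 0.05, with a log2 fold change of 1 or more in either direction), which is 5.06% of the genes tested. Higher levels in the chemically induced lines were called for 499 genes, 2.85%, and higher levels in the engineered lines for 385 genes, 2.2%. Fewer genes moved alike in both lines of a side. All 4 differences between a chemically induced and an engineered line had the same sign for 314 of the 499 genes and for 292 of the 385 genes. They all reached a log2 fold change of 1 for 117 and 104 genes. After the further requirement that the 6 tumors of one side did not overlap the 6 of the other, 75 genes were higher in both chemically induced lines (0.429% of the genes tested) and 50 were higher in both engineered lines (0.286%). These 125 genes are referred to as agreeing genes. For 27 of the 75 and 21 of the 50 genes the weakest of the 4 differences between lines was at least 2 on the log2 scale. The rule asked for the size of these 4 differences and not for a p-value of each. In the edgeR test all 4 had an adjusted p under 0.05 for 30 of the 75 and 8 of the 50 genes. At the edge of the rule, Gm9747 was included with a weakest difference of 1.01 and Zbed6 was left out with 0.99.

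The lines of a side also differed from each other. The within-side comparison of 005 with Mut3 gave 3463 DE genes (19.8%), more than any comparison across sides, and CT2A with GL261 gave 1358 (7.77%). Across sides, the counts were 719 for CT2A against 005 (4.11%), 2231 for CT2A against Mut3 (12.8%), 458 for GL261 against 005 (2.62%) and 3015 for GL261 against Mut3 (17.2%). When each line was reduced to its mean and limma compared 2 lines with 2 lines, no gene passed the threshold, and 405 genes had an unadjusted p under 0.05. Without 005 replicate 3, edgeR called 1529 genes, with 121 and 95 agreeing genes, which included 67 of the 75 and 48 of the 50. Without 005 replicate 2 there were 131 and 58 agreeing genes, which included 71 of the 75 and 44 of the 50.

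**Figure D1:**
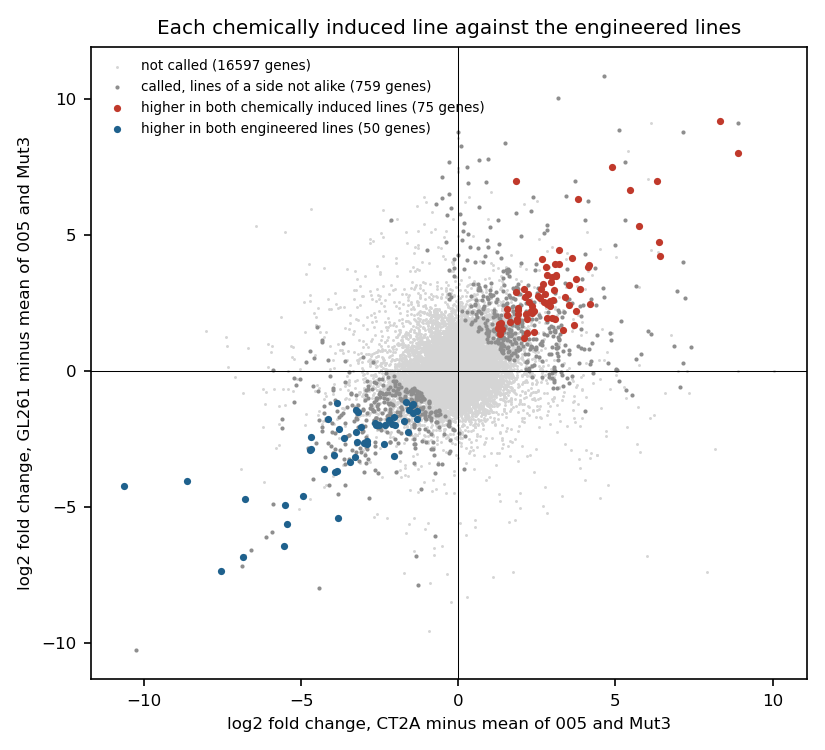
Log2 fold change of CT2A (x axis) and of GL261 (y axis) against the mean of 005 and Mut3 for the 17481 genes tested, with 1 point per gene. Both axes use the same 6 engineered tumors, so the axes are not independent. The 75 genes higher in both chemically induced lines lie in the upper right and the 50 genes higher in both engineered lines in the lower left, and the called genes that did not agree are in dark grey.

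Of all the gene lists described, that of interferon-stimulated genes held the most agreeing genes, and all of them were higher in CT2A and GL261. Of the 40 genes in the interferon-stimulated list, all were tested, 18 were called higher in the chemically induced lines, 0 were called lower, and 39 had a positive fold change. The median log2 fold change of the list was 1.78, against −0.03 over all genes tested. Agreement of both lines held for 11 genes, namely Ifit1, Ifit2, Ifit3, Ifit3b, Isg15, Rsad2, Bst2, Irf7, Ifih1, Xaf1 and Rtp4. Over all genes tested, 2.85% were called higher in the chemically induced lines.

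The Ifit genes encode proteins that bind foreign RNA and restrict its translation. Ifit1 (chr19:34640871-34650009, plus strand, GRCm38) had 167, 242 and 286 CPM in CT2A and 174, 106 and 105 CPM in GL261, against 20, 48 and 14.1 CPM in 005 and 4.81, 13 and 9.59 CPM in Mut3. The lowest chemically induced tumor was above the highest engineered one, 005 replicate 2, which the rule required. The side difference was 3.45 ± 0.37 on the log2 scale (SE, adjusted p = 0.000109). Naïve brain had 13.9, 5.48 and 6.76 CPM, a level close to that of Mut3.

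Ifit3 (chr19:34583531-34588731, plus strand) spanned 229 to 647 CPM (median 351) in the 6 chemically induced tumors and 12.4 to 83.1 CPM (median 37.1) in the 6 engineered tumors (log2 fold change 3.32 ± 0.36 (SE), adjusted p = 0.000113). Ifit3b spanned 45.8 to 124 CPM (median 77.7) in the 6 chemically induced tumors and 2.57 to 15.8 CPM (median 8.69) in the 6 engineered tumors (log2 fold change 3.30 ± 0.35 (SE), adjusted p = 0.000105). Their transcripts share 1700 bases at 97.8% identity, so the estimated counts of Ifit3 and Ifit3b are uncertain as separate measurements. Ifit2, which was the closest of the family to overlap, spanned 50.4 to 120.2 CPM (median 62.8) in the 6 chemically induced tumors and 8.56 to 47.9 CPM (median 12.9) in the 6 engineered tumors (log2 fold change 2.01 ± 0.33 (SE), adjusted p = 0.00294). It no longer met the rule when 005 replicate 3 was left out.

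Isg15 (chr4:156199424-156200818, minus strand) encodes a ubiquitin-like protein that is joined to other proteins during antiviral responses. It had 10.7, 13.8 and 11.6 CPM in CT2A, 14.5, 9.86 and 14.2 CPM in GL261, 1.65, 6.28 and 1.14 CPM in 005 and 0.559, 2.39 and 0.967 CPM in Mut3 (log2 fold change 2.66 ± 0.46 (SE), adjusted p = 0.00381). Rsad2 (chr12:26442746-26456452, minus strand) encodes viperin, an enzyme that blocks viral replication. It spanned 17.6 to 61.5 CPM (median 25.1) in the 6 chemically induced tumors and 1.41 to 8.81 CPM (median 2.9) in the 6 engineered tumors (log2 fold change 3.06 ± 0.44 (SE), adjusted p = 0.00109). Bst2 (chr8:71534255-71537456, minus strand) encodes tetherin, which holds budding virus particles at the cell surface. It had 93.5, 112 and 125 CPM in CT2A, 292, 141 and 196 CPM in GL261, 13.3, 51.5 and 16.8 CPM in 005 and 16.9, 27.8 and 29.2 CPM in Mut3 (log2 fold change 2.55 ± 0.33 (SE), adjusted p = 0.000475). Unlike Ifit1 and Ifit3, Bst2 was also above naïve brain in both engineered lines, since naïve brain had 3.26, 4.73 and 2.7 CPM.

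The remaining members of the list that agreed were Ifih1, Irf7, Xaf1 and Rtp4. Ifih1 encodes MDA5, a sensor of double-stranded RNA, and spanned 31 to 58.2 CPM (median 42.2) in the 6 chemically induced tumors and 1.01 to 23.5 CPM (median 6.98) in the 6 engineered tumors (log2 fold change 2.62 ± 0.40 (SE), adjusted p = 0.00175). Irf7, the transcription factor that amplifies type I interferon production, spanned 15.1 to 38.4 CPM (median 24.1) in the 6 chemically induced tumors and 1.01 to 13.9 CPM (median 3.73) in the 6 engineered tumors (log2 fold change 2.64 ± 0.46 (SE), adjusted p = 0.00383). The Irf7 gene overlaps Phrf1 on the opposite strand, and Phrf1 was among the genes higher in both engineered lines (−1.39, adjusted p = 0.00659). The sources used here do not state whether the counting used strand, so reads in the overlap may not be assignable. Xaf1, a regulator of apoptosis, and Rtp4, a receptor transport protein, had log2 fold changes of 2.42 (adjusted p = 0.00546) and 2.80 (adjusted p = 0.000559). The highest engineered tumor was 005 replicate 2 for each of these 4 genes, at 23.5, 13.9, 122 and 98.6 CPM respectively.

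**Figure D2:**
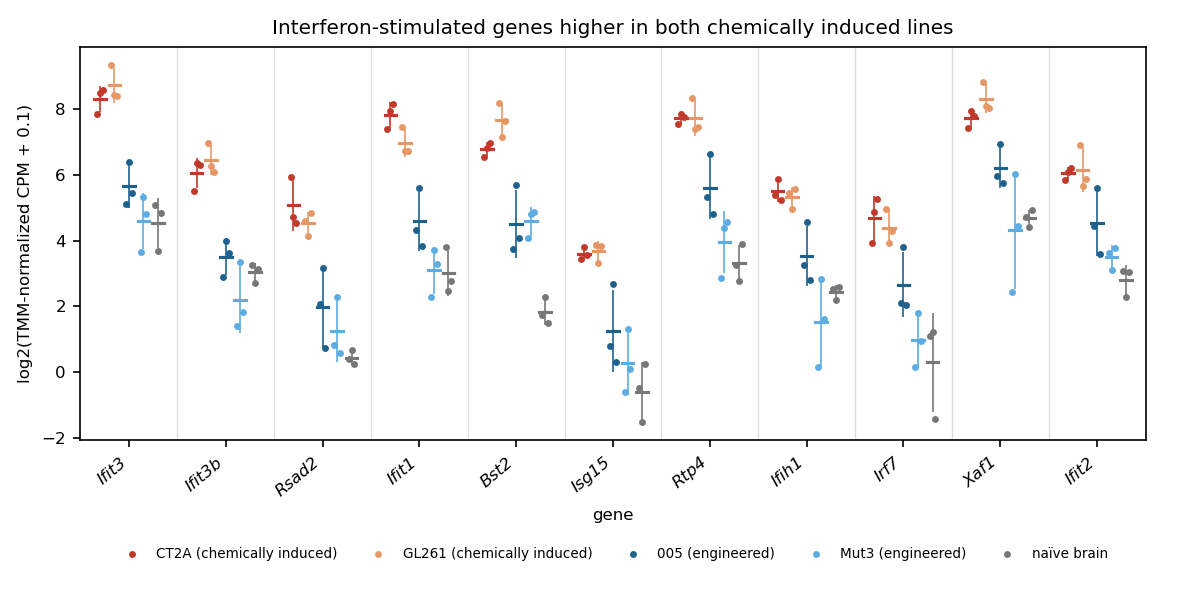
Log2 of CPM plus 0.1 for the 11 interferon-stimulated genes that were higher in both chemically induced lines, with 1 point per mouse, a horizontal bar for the mean of each group and a vertical bar for 1 SD (n = 3 mice). For every gene the 6 CT2A and GL261 tumors lie above the 6 tumors of 005 and Mut3, which the rule of agreement required. Naïve brain is below all tumors for Bst2 and overlaps the engineered tumors for Ifit1 and Ifit3.

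Summed over the 11 genes, the level was 1077 to 2245 CPM in the chemically induced tumors (median 1387), 65.6 to 519 CPM in the engineered tumors (median 199) and 70.5 to 114 CPM in naïve brain. Of the others, Ifi44, Oas1a, Oasl2, Usp18, Iigp1, Zbp1 and Ifi27l2a were called higher but did not meet the rule of agreement. Guanylate-binding proteins and the interferon-gamma chemokine Cxcl9 did not meet it. Gbp2 had means of 240.2 ± 13.1 CPM in CT2A (SD, n = 3), 1070.3 ± 417 CPM in GL261, 1031 ± 1251 CPM in 005 and 80 ± 66.6 CPM in Mut3 (log2 fold change 0.82 ± 0.53 (SE), adjusted p = 0.396). Cxcl9 was highest in 005, at 174, 2706 and 101 CPM, against 35.9, 36.2 and 48.6 CPM in CT2A (log2 fold change −0.98 ± 0.71 (SE), adjusted p = 0.453). Without 005 replicate 2, Gbp2 was called higher in the chemically induced lines (log2 fold change 1.68, adjusted p = 0.0273) without agreement, and the fold change of Cxcl9 turned from negative to 0.44 (adjusted p = 0.664).

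The 17 GTPases induced by interferon-gamma, a list added after values were seen, had a median log2 fold change of 1.24 between the sides. The median between CT2A and 005 was −1.38, but 0.07 without 005 replicate 2. Over all genes tested, 2.85% were called higher in the chemically induced lines and 2.2% lower. Of the 17, Iigp1 and Gm4951 were called higher in the chemically induced lines, 0 were called lower, 15 were not called, and 0 agreed. Without 005 replicate 2, 14 were called higher, 1 agreed, and the median between the sides was 1.80. Their summed level was 1369 to 1679 CPM in CT2A, 4919 to 10379.7 CPM in GL261, 1942, 7978 and 829 CPM in the 3 tumors of 005 and 266 to 1359 CPM in Mut3. The order of CT2A and 005 for these genes thus rested on 005 replicate 2. The summed T and NK cell level was 162 to 617 CPM in the chemically induced tumors and 21.5 to 1297 CPM in the engineered tumors, and that of monocytes and macrophages was 3462 to 5702 CPM and 1831 to 17605 CPM, of which the highest was 005 replicate 2 and the next 005 replicate 1, at 10226 CPM. Their part in the interferon result was not tested. Without 005 replicate 2, 35 of the 40 listed genes were called higher and 18 agreed, and without 005 replicate 3, 18 were called and 10 agreed. Over all genes, 643 of 18308 were called higher in the chemically induced lines and 131 agreed without 005 replicate 2. Without 005 replicate 3 these numbers were 999 of 18300 and 121.

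**Figure D3:**
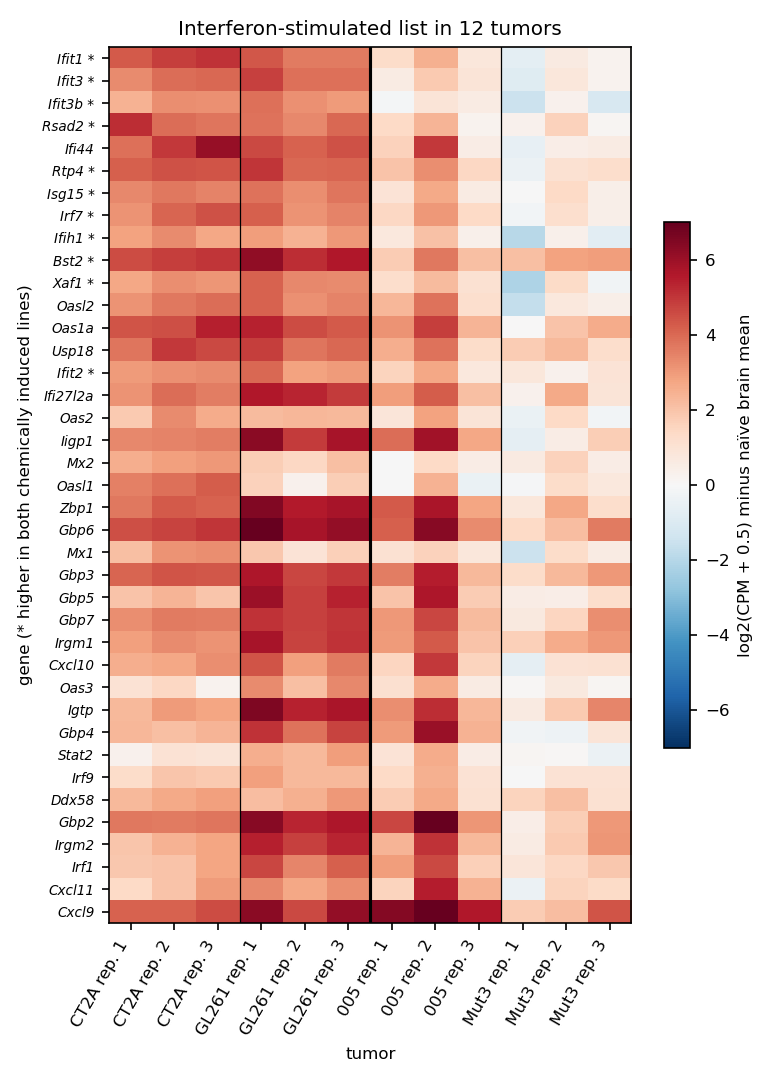
Difference in log2(CPM + 0.5) between each of the 12 tumors (columns) and the mean of naïve brain for 39 genes of the interferon-stimulated list (rows, ordered by the fold change between the sides). The agreeing genes, marked by asterisks, lie toward the top and are red in all 6 CT2A and GL261 columns, whereas Gbp, Irgm and Cxcl9 rows are strongest in GL261 and 005 replicate 2.

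Upstream components were followed in lists that were also added after values were seen. Of the 20 interferon ligand genes, 1, Ifng, passed the filter on low counts (log2 fold change 0.41 ± 0.73 (SE), adjusted p = 0.794). Of the other 19, 15 had 0 counts in all 12 tumors, and the highest count in a tumor was 13, for Ifnb1, which encodes interferon-beta. Ifnb1 had 7, 10 and 6 counts in CT2A and 0, 13 and 1 in GL261, against 0 in all 3 tumors of 005 and 4, 0 and 6 in Mut3. Every CT2A tumor was above the floor of 3 counts and every 005 tumor was at 0, while GL261 and Mut3 overlapped. At these counts Ifnb1 was below the filter and was not tested. Among 8 tested receptor and kinase genes 0 were called by edgeR in either direction and 1 had an unadjusted p under 0.05. Ifnar1, the first chain of the type I receptor, spanned 9.4 to 13.2 CPM (median 11.8) in the 6 chemically induced tumors and 12.6 to 25 CPM (median 13.4) in the 6 engineered tumors (log2 fold change −0.40 ± 0.22 (SE), adjusted p = 0.303). Of 20 nucleic acid sensors and adaptors, Ifih1, Zbp1 and Tmem173 were called higher and Rnaseh2b was called lower. Over all genes tested, 2.85% and 2.2% were called in these directions. Tmem173 encodes STING, the adaptor of cytosolic DNA sensing, and its level was 68.7 ± 26.6 CPM in CT2A (SD, n = 3), 54 ± 22.4 CPM in GL261 and 47.3 ± 29.8 CPM in 005, but 6.06 ± 2.57 CPM in Mut3 (log2 fold change 1.84 ± 0.36 (SE), adjusted p = 0.00794). The RNA sensor Ddx58 had a log2 fold change of 0.82 (adjusted p = 0.107), which did not pass.

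Among 43 tested TRIM, PARP and other antiviral effectors, 19 were called higher, 0 lower and 24 did not pass, with a median log2 fold change of 1.37, and 5 agreed. Of all genes tested, 2.85% were called higher in the chemically induced lines and 0.429% were higher in both of these lines by the rule. Trim25, the ubiquitin ligase that activates RIG-I, spanned 18 to 47.7 CPM (median 32.2) in the 6 chemically induced tumors and 0.895 to 16.1 CPM (median 5.01) in the 6 engineered tumors (log2 fold change 2.81 ± 0.36 (SE), adjusted p = 0.000405). Trim30d spanned 20.7 to 47.2 CPM (median 31.5) in the 6 chemically induced tumors and 0.448 to 10.9 CPM (median 2.86) in the 6 engineered tumors (log2 fold change 3.57 ± 0.37 (SE), adjusted p = 8.93e-05), and its transcript shares 1719 bases at 90.1% identity with Trim30a. Parp12, an ADP-ribosyltransferase with antiviral activity, had 22.1, 28.3 and 21.1 CPM in CT2A, 53.7, 36.5 and 57.1 CPM in GL261, 6.59, 12.2 and 4.7 CPM in 005 and 1.01, 1.38 and 2.02 CPM in Mut3 (log2 fold change 3.32 ± 0.37 (SE), adjusted p = 0.000121). Plscr1 and Plscr2, members of the scramblase family, had log2 fold changes of 2.38 (adjusted p = 0.00129) and 2.96 (adjusted p = 0.000113). These members were found in the same comparison that chose the list, so their number is a description.

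The promoters of 4 of these genes are shown because they carry the letters of the interferon-stimulated response element, GAAANNGAA on either strand, which is the element read by the type I complex. Each line gives 250 bases before and 50 bases from the annotated start of the RefSeq gene on GRCm38.p6, 5′ to 3′ on the strand of the gene, with every match in capitals and overlapping matches joined. The windows are chr19:34640639-34640938 (plus strand) for Ifit1, chr4:156200769-156201068 (minus strand) for Isg15, chr12:26456403-26456702 (minus strand) for Rsad2 and chr8:71537423-71537722 (minus strand) for Bst2.
Ifit1: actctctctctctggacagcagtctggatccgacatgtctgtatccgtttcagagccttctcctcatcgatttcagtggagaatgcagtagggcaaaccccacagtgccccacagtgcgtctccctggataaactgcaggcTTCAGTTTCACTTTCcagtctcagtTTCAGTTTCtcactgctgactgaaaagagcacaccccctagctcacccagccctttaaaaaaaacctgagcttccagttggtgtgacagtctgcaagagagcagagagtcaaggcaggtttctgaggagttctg
Isg15: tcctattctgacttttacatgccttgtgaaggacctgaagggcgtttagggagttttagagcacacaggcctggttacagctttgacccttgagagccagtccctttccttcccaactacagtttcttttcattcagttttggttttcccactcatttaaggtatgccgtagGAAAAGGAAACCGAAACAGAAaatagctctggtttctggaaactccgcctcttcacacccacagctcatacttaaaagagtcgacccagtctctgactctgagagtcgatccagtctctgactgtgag
Rsad2: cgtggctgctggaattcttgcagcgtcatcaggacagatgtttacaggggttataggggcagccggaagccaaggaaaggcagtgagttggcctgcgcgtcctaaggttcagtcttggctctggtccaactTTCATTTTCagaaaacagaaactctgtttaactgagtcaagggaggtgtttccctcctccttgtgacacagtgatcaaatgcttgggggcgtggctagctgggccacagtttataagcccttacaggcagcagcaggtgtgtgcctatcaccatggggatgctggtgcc
Bst2: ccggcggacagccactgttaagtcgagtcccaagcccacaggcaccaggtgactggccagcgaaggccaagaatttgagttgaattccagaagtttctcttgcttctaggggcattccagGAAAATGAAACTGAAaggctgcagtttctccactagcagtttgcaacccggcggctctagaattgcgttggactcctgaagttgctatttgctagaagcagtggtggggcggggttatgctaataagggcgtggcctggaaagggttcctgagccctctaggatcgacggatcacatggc

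The first match began 109 bases before the start in Ifit1, 78 in Isg15, 119 in Rsad2 and 130 in Bst2. Of the 11 agreeing interferon-stimulated genes, 10 were in the promoter table, and 7 of their 11 promoters (63.6%) held the element, against 2812 of 32851 promoters in the table (8.56%). Irf7, Xaf1 and Ifit2 had no match in this window. Among the 28 genes of the whole list with a promoter, 21 of 32 promoters (65.6%) held it, a share close to that of the agreeing genes. Gbp2, Igtp, Irgm1 and Cxcl9, which did not agree, also held it. Over all agreeing genes, 13 of 56 promoters of the chemically induced side (23.2%) and 4 of 45 of the engineered side (8.89%) had a match. The AP-1 letters TGANTCA were present in 8.93% and 6.67% of these promoters against 7.81% of all, the TEAD letters GGAATG in 12.5% and 24.4% against 14.7%, and the SOX letters ACAATG in 3.57% and 13.3% against 12.6%. In the agreeing interferon-stimulated promoters, the AP-1 letters were in 4 of 11 (36.4%), the TEAD letters in 1 (9.09%) and the SOX letters in 0, and in the 32 promoters of the whole list in 28.1%, 6.25% and 3.12%. A match describes letters only.

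A second group of agreeing genes was linked by shared sequence. When the transcripts of the 125 genes were aligned to those of all tested genes, 26 of the 75 genes of the chemically induced side and 11 of the 50 of the engineered side shared at least 200 bases at 90% identity or more with another tested gene. Through such stretches, 13 of the 75 genes were joined into 1 group, namely A430078G23Rik, Cpne8, Fmo1, Gm29562, Gm37758, Gm37917, Gm38226, Gm42959, Gm43107, Gm43108, Gm44231, Lrrc8d and Noct. Their estimated counts may be split among copies of 1 repeated sequence, so they are not 13 independent results and each is uncertain as a gene. What the repeated sequence is was not determined here. Outside this group, Xaf1 and Phrf1 were joined in the same way with Ftx, which makes their counts uncertain too.

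The rule of agreement already required that the sides not overlap for each gene of this group. In the summed level 005 was farther from the chemically induced lines than Mut3 was. Gm43108, a locus of uncertain type that lies over Dph5 on chromosome 3, had 3089.6, 4257 and 6129.6 CPM in CT2A and 4731, 4056 and 4172 CPM in GL261, against 170.2, 169 and 101 CPM in 005, 1187, 1892 and 3002 CPM in Mut3 and 62.8, 78 and 96.5 CPM in naïve brain (log2 fold change 3.01 ± 0.27 (SE), adjusted p = 2.28e-05). The highest Mut3 tumor came close to the lowest CT2A tumor, while all 005 tumors were far below both. Noct (chr3:51224447-51251644, plus strand), the gene for nocturnin, a phosphatase under circadian control, spanned 665 to 1395 CPM (median 958) in the 6 chemically induced tumors and 66.7 to 262 CPM (median 98.9) in the 6 engineered tumors (log2 fold change 2.96 ± 0.23 (SE), adjusted p = 7.17e-06). Summed over the 13 genes, the level was 8682 to 15296 CPM in the chemically induced tumors, 711 to 755 CPM in 005, 2262 to 5339 CPM in Mut3 and 480.3 to 666 CPM in naïve brain. Gm43107 was listed at 0 in 5 of the 6 engineered tumors but at 44.5 CPM in 005 replicate 3 and 25.9, 12 and 47.6 CPM in naïve brain, and spanned 112 to 288 CPM (median 166) in the chemically induced tumors.

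Noct shared such stretches with 42 other tested genes, of which 20 were called higher in the chemically induced lines and 0 in the engineered lines, with a median log2 fold change of 0.91. The background is 2.85%, but these 42 genes share sequence with Noct and do not give separate evidence. Slc38a6, which shares 3243 bases at 98.5% identity, and D10Wsu102e, which shares 3497 bases at 95.5%, were not called (log2 fold changes 0.61 and 0.36). The estimated fold changes thus differed among genes that share sequence with Noct. Because counts may be split among copies, they do not show the level of the shared sequence at each gene.

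Of the genes with no tie to interferon in the lists, Coro2a had the largest fold change of all 125. Coro2a (chr4:46536937-46602202, minus strand) encodes an actin-binding coronin. It had 612, 897 and 977 CPM in CT2A and 1579, 1257 and 1637 CPM in GL261, 3.19, 7.48 and 5.2 CPM in 005, 0.895, 0.126 and 2.46 CPM in Mut3 and 6.12, 5.48 and 5.41 CPM in naïve brain. The side difference was 8.77 ± 0.48 on the log2 scale (SE, adjusted p = 3.19e-07), and the weakest of the 4 differences between lines was 7.29. The engineered tumors reached at most 7.48 CPM, close to naïve brain, whereas every CT2A and GL261 tumor was above it.

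Cst6, a secreted cysteine protease inhibitor, spanned 32.1 to 53.4 CPM (median 38.1) in the 6 chemically induced tumors and 0.724 to 5.63 CPM (median 2.33) in the 6 engineered tumors (log2 fold change 3.98 ± 0.44 (SE), adjusted p = 0.000113). Psg29, a member of the pregnancy-specific glycoproteins, had 13.1, 16.5 and 17.4 CPM in CT2A and 91.4, 87.1 and 86.5 CPM in GL261 but at most 1.76 CPM in the engineered tumors (log2 fold change 5.07 ± 0.33 (SE), adjusted p = 1.58e-06). GL261 was above CT2A for Psg29 in every mouse. Psg29 transcripts share sequence with 8 other tested genes, the longest stretch being 301 bases at 91.0% identity with Gm42577. Its estimated counts are therefore uncertain too. AI662270, a noncoding transcript, spanned 186 to 444 CPM (median 207) in the 6 chemically induced tumors and 3.65 to 75.5 CPM (median 11.2) in the 6 engineered tumors (log2 fold change 3.56 ± 0.65 (SE), adjusted p = 0.00556). Syce2, a protein of the synaptonemal complex of meiosis, spanned 18.1 to 42.4 CPM (median 26.9) in the 6 chemically induced tumors and 0.783 to 5.19 CPM (median 3) in the 6 engineered tumors (log2 fold change 3.34 ± 0.32 (SE), adjusted p = 4.12e-05). Rgmb, a co-receptor for bone morphogenetic proteins, spanned 19.9 to 44.9 CPM (median 26.7) in the 6 chemically induced tumors and 3.9 to 7 CPM (median 4.51) in the 6 engineered tumors (log2 fold change 2.52 ± 0.30 (SE), adjusted p = 0.000186).

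Transcription factors of early development were also present among the 75 genes. These genes, apart from those of the Hox list, were picked out after their values were seen. Alx1, a homeobox factor of craniofacial mesenchyme, had 4.27, 10.2 and 6.46 CPM in CT2A and 55.8, 33.9 and 38.3 CPM in GL261, with at most 0.448 CPM in any engineered tumor (log2 fold change 6.20 ± 0.45 (SE), adjusted p = 4.29e-06). Gata6, an endoderm and mesoderm factor, was at 0.621 to 3.88 CPM in the chemically induced tumors and under 3 counts in all 6 engineered tumors. Plag1, a zinc finger factor, spanned 1.87 to 41.6 CPM (median 15.1) in the 6 chemically induced tumors and 0 to 1.85 CPM (median 0.249) in the 6 engineered tumors (log2 fold change 5.34 ± 0.76 (SE), adjusted p = 0.00105). Dppa4, which marks pluripotent cells, had 40, 23.1 and 31.2 CPM in GL261 and 0.733, 1.4 and 0.517 CPM in CT2A, and at most 0.503 CPM in the engineered tumors, so it met the rule with levels in CT2A that were close to those of the engineered lines.

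Of the 39 Hox genes on the list, 12 passed the filter on low counts and were tested. Of these 12, Hoxa10 and Hoxc10 agreed, Hoxa5 was called in the opposite direction, and 9 were not called. Over all genes tested, 2.85% were called higher in the chemically induced lines and 2.2% in the engineered lines. By the rule, 0.429% were higher in both chemically induced lines. Hoxa10 had 26, 46.4 and 40.9 CPM in CT2A, 14.9, 10.2 and 9.22 CPM in GL261, 7.83, 2.54 and 0.356 CPM in 005 and 0.336, 2.77 and 0.528 CPM in Mut3 (log2 fold change 3.34 ± 0.61 (SE), adjusted p = 0.00571). Hoxc10 had 7.08, 10.4 and 10.5 CPM in CT2A and 6.63, 0.647 and 1.82 CPM in GL261, and fewer than 3 counts in each engineered tumor. Hoxa5 had means of 3.88 ± 1.3 CPM in CT2A (SD, n = 3), 4.07 ± 1.69 CPM in GL261, 10.8 ± 6.65 CPM in 005 and 33.5 ± 11.3 CPM in Mut3 (log2 fold change −2.26 ± 0.42 (SE), adjusted p = 0.00636).

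Mesenchymal genes were called in 1 direction, but few of them agreed between lines. Of 47 mesenchymal genes tested, 9 were called higher in the chemically induced lines, 0 were called lower and 38 were not called, against 2.85% and 2.2% of all genes called in these directions, with a median log2 fold change of 0.71. Cavin1, a coat protein of caveolae, was the member that agreed, with 42.5, 51.4 and 49.5 CPM in CT2A, 24.5, 32.8 and 25.4 CPM in GL261, 11.5, 13.2 and 11.7 CPM in 005 and 9.06, 12.1 and 5.98 CPM in Mut3 (log2 fold change 1.79 ± 0.22 (SE), adjusted p = 0.000212). Twist1, a factor of the epithelial to mesenchymal transition, had 15.6 ± 2.1 CPM in CT2A (SD, n = 3) and 4.01 ± 2.01 CPM in GL261, against 1.89 ± 0.928 and 0.276 ± 0.0673 CPM in 005 and Mut3 (log2 fold change 3.41 ± 0.42 (SE), adjusted p = 0.000272), but its sides overlapped. Without 005 replicate 2, 3 mesenchymal genes agreed.

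Of 32 collagen genes tested, 4 were called higher and 1, Col9a1, lower, with a median of 0.27. Over all genes tested, 2.85% and 2.2% were called in these directions. Col3a1, the fibrillar collagen of loose connective tissue, had 348, 551 and 533 CPM in CT2A, 152, 176 and 169 CPM in GL261, 13.7, 36.5 and 30.5 CPM in 005 and 103, 32.3 and 7.3 CPM in Mut3 (log2 fold change 2.98 ± 0.47 (SE), adjusted p = 0.00192). The highest engineered tumor was Mut3 replicate 1 and the lowest chemically induced tumor GL261 replicate 1, without overlap, which the rule required. Col4a3, a chain of basement membrane collagen, spanned 2.2 to 4.35 CPM (median 2.93) in the 6 chemically induced tumors and 0.704 to 1.69 CPM (median 1.06) in the 6 engineered tumors (log2 fold change 1.43 ± 0.36 (SE), adjusted p = 0.0314), and lost its call in 13 of the alternatives tried. The summed level of the pericyte and fibroblast list was 182 to 264 CPM in the chemically induced tumors and 180.2 to 364 CPM in the engineered tumors. Which cells the Col3a1 RNA came from was not tested.

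**Figure D4:**
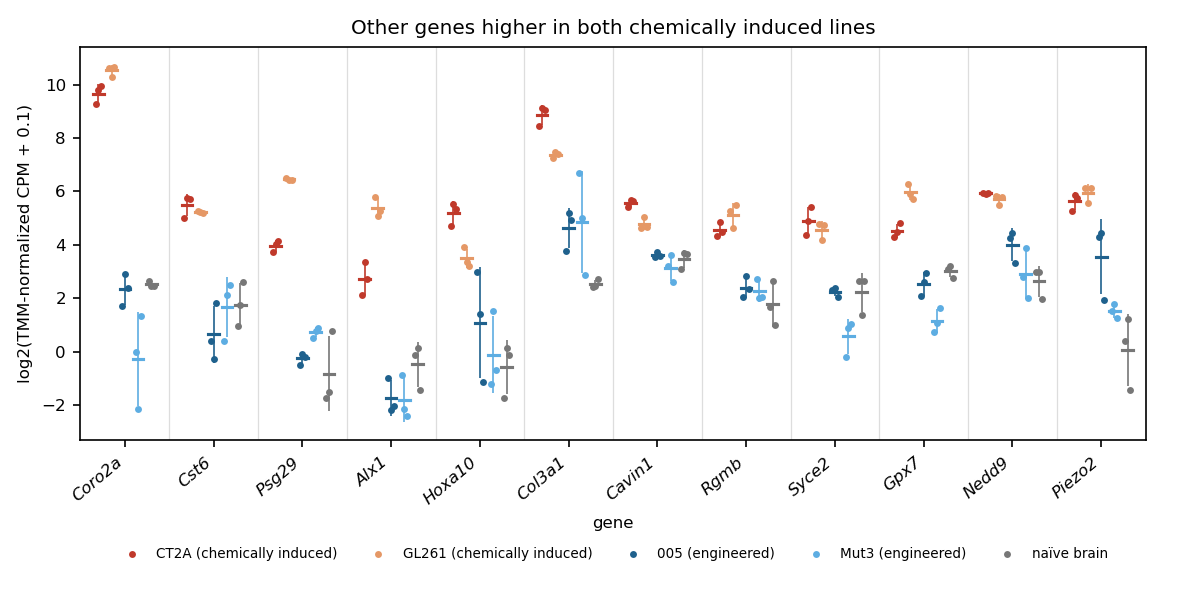
Log2 of CPM plus 0.1 for 12 further genes higher in both chemically induced lines, chosen for display after values were seen, with 1 point per mouse, the mean as a horizontal bar and 1 SD as a vertical bar (n = 3 mice). Coro2a is separated most widely, Psg29 and Alx1 are higher in GL261 than in CT2A, and Col3a1 and Hoxa10 are higher in CT2A than in GL261.

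Genes higher in both engineered lines included regulators of neural development. Sox11 (chr12:27334264-27342574, minus strand), a transcription factor of neural progenitors and young neurons, had 26, 34.8 and 22.1 CPM in 005 and 90.5, 35.1 and 62.9 CPM in Mut3, against 10.1, 1.86 and 2.45 CPM in CT2A and 7.25, 10 and 12.6 CPM in GL261. The difference was −2.58 ± 0.39 on the log2 scale (SE, adjusted p = 0.00143). Naïve brain had 23.5, 27.9 and 19.7 CPM, so 005 was at the level of naïve brain, Mut3 was above it, and both chemically induced lines were below it.

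Of the 35 neural stem and progenitor factors tested, 6 were called higher in the engineered lines and 3 in the chemically induced lines, against 2.2% and 2.85% of all genes, with a median log2 fold change of −0.31, and Sox11 was the member that agreed. Hes1 and Pax6 were among the 3 called higher in the chemically induced lines. Sox21 did not agree, because GL261 replicate 2 was above 005 replicate 1, and it had means of 6.25 ± 3.22 CPM in 005 (SD, n = 3), 20.2 ± 7.06 CPM in Mut3, 0.54 ± 0.46 CPM in CT2A and 2.71 ± 1.72 CPM in GL261 (log2 fold change −3.19 ± 0.47 (SE), adjusted p = 0.00129).

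Ptn (chr6:36714929-36810220, minus strand) encodes pleiotrophin, a growth factor of glia and their progenitors. It had 305, 358 and 623 CPM in 005, 1346, 831 and 892 CPM in Mut3, 155, 95.5 and 93.7 CPM in CT2A and 136, 236 and 132 CPM in GL261 (log2 fold change −2.25 ± 0.27 (SE), adjusted p = 0.000188). The 3 naïve brains, at 673, 531 and 952 CPM, were in the range of the engineered tumors. Tmem108, a membrane protein of neurons, spanned 7.69 to 25 CPM (median 11.8) in the engineered tumors and 0.155 to 3.52 CPM (median 1.38) in the chemically induced tumors (log2 fold change −3.57 ± 0.44 (SE), adjusted p = 0.000268). For Sox11, Ptn and Tmem108, 005 replicate 3 lay near naïve brain, and its part in these values can be read from the fit without it, in which the log2 fold changes were −2.67, −2.09 and −3.72.

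Other agreeing genes of this side, named after their values were seen, act in the developing brain or in signalling. Igdcc4, an immunoglobulin superfamily receptor, had 3.81 to 14.6 CPM (median 11.6) in the engineered tumors and 0.31 to 3.11 CPM (median 1.88) in the chemically induced tumors (log2 fold change −2.94 ± 0.34 (SE), adjusted p = 0.000142). Neurl1b, a ubiquitin ligase of the Notch pathway, had 13.6 to 22.1 CPM (median 17.1) and 0.31 to 10.8 CPM (median 2.24) respectively (log2 fold change −2.52 ± 0.37 (SE), adjusted p = 0.00138), and naïve brain, at 26.1, 42.1 and 19.7 CPM, overlapped the engineered range. Ebf3, a factor of neuronal differentiation, had 4.77 to 16 CPM (median 8.83) and 0 to 1.47 CPM (median 0.752) (log2 fold change −3.40 ± 0.58 (SE), adjusted p = 0.00334), with at most 0.498 CPM in naïve brain. En2, a homeobox factor of the midbrain and hindbrain, was under 3 counts in all 6 chemically induced tumors and at 0.641 to 5.54 CPM in the engineered tumors.

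Further leading genes of the engineered side have other functions. Nt5dc2, of the 5′-nucleotidase domain family, spanned 11.7 to 43.9 CPM (median 28.9) in the engineered tumors and 4.64 to 7.89 CPM (median 6.57) in the chemically induced tumors (log2 fold change −2.17 ± 0.35 (SE), adjusted p = 0.00268). Mtss1, which links actin to the membrane, spanned 10.4 to 30.9 CPM (median 21.1) and 4.19 to 6.23 CPM (median 5.45) (log2 fold change −2.03 ± 0.31 (SE), adjusted p = 0.00148). Klhl23, of the Kelch family, spanned 27.5 to 40.7 CPM (median 32.2) and 5.18 to 12.8 CPM (median 10.2) (log2 fold change −1.77 ± 0.23 (SE), adjusted p = 0.000497), and naïve brain, at 35.5, 27.9 and 36.5 CPM, was in the range of the engineered tumors. Dpf3, a subunit of the BAF chromatin complex, had 1 chemically induced tumor close to the engineered range, at 7.1 CPM against 7.55 CPM in the lowest engineered tumor (log2 fold change −2.57 ± 0.67 (SE), adjusted p = 0.0346), and it lost its call in 10 of the alternatives tried. Frmd4b was called with a log2 fold change of −1.33 (adjusted p = 0.0281) and lost the call in 12 of the alternatives.

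Enzymes and matrix genes were also among the 50. Pipox, which oxidizes sarcosine and pipecolic acid, had 17, 15.2 and 5.77 CPM in 005 and 18.8, 31.6 and 9.5 CPM in Mut3, against 1.71, 0.621 and 0.646 CPM in CT2A and 3.73, 1.45 and 0.607 CPM in GL261 (log2 fold change −3.52 ± 0.52 (SE), adjusted p = 0.00129). Gldc, the glycine-cleaving decarboxylase of the mitochondrion, whose transcripts share sequence with 48 other tested genes, spanned 3.34 to 7.69 CPM (median 4.81) and 0.485 to 2.55 CPM (median 1.27) (log2 fold change −2.0 ± 0.40 (SE), adjusted p = 0.00875). Lama5, a laminin chain of basement membranes, spanned 1.71 to 7.3 CPM (median 4.81) in the engineered tumors and 0.207 to 0.97 CPM (median 0.698) in the chemically induced tumors (log2 fold change −2.82 ± 0.54 (SE), adjusted p = 0.00727). It was the agreeing member among 40 tested matrix and remodelling genes, of which 5 were called higher in the engineered lines and 4 in the chemically induced lines. Ptp4a3, a protein tyrosine phosphatase on the p53 target list, spanned 15.1 to 29.2 CPM (median 22.5) and 5.22 to 11.6 CPM (median 7.03) (log2 fold change −1.55 ± 0.21 (SE), adjusted p = 0.000795). It was the agreeing member of 28 p53 targets tested, of which 2 were called higher in the engineered lines and 1 in the chemically induced lines. Over all genes these shares were 2.2% and 2.85%. Sapcd1 had a log2 fold change of −3.77 (adjusted p = 0.00145), but its annotated transcripts share 483 identical bases with Vwa7 on the opposite strand.

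**Figure D5:**
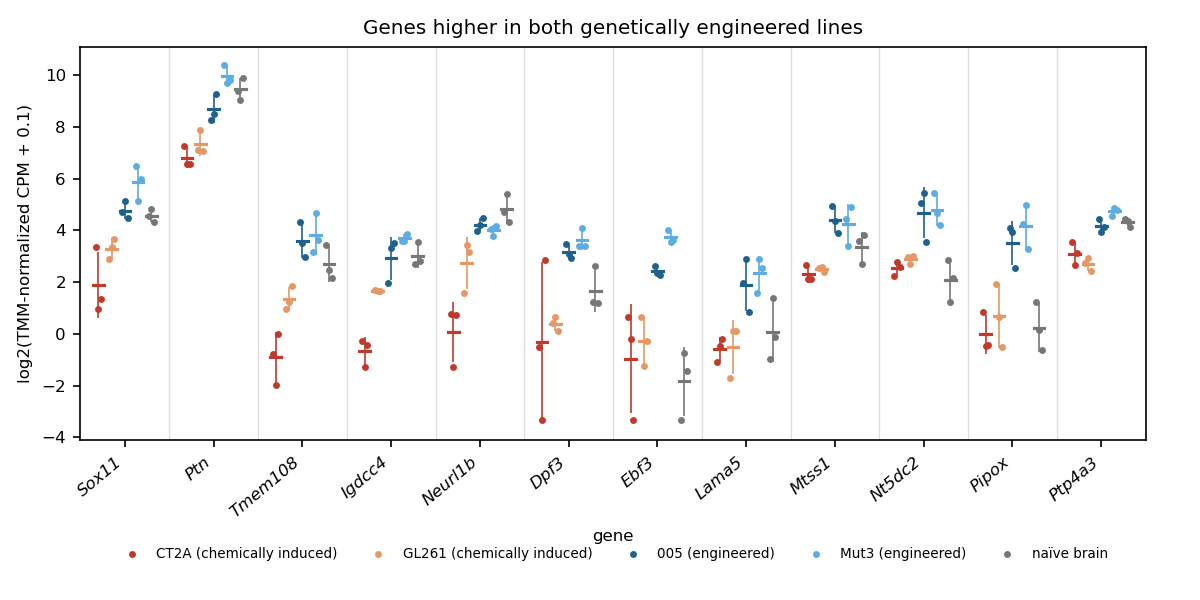
Log2 of CPM plus 0.1 for 12 genes higher in both engineered lines, chosen for display after values were seen, with 1 point per mouse, the mean as a horizontal bar and 1 SD as a vertical bar (n = 3 mice). All 005 and Mut3 points lie above all CT2A and GL261 points for each gene, which the rule of agreement required. Naïve brain is at the engineered level for Ptn and Ptp4a3 but near the chemically induced level for Pipox and Ebf3.

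Some of the largest differences of the engineered side belonged to processed pseudogenes, which are copies of messenger RNA inserted into the genome. There were 6 pseudogenes among the 50 genes (12%) and 3 among the 75 genes of the chemically induced side (4%), against 5.69% of all genes tested. Gm10709, a copy of the ribosomal protein gene Rpl29, had 57.2, 36.8 and 3.7 CPM in 005, 44.8, 30.8 and 52.8 CPM in Mut3 and at most 1.87 CPM in the chemically induced tumors (log2 fold change −5.53 ± 0.75 (SE), adjusted p = 0.000624). Rpl3-ps1, 99.8% identical to Rpl3 over 1210 bases, had 430.2, 179 and 49.2 CPM in 005 and 821, 693 and 884 CPM in Mut3, against 0 to 24.8 CPM (median 4) in the chemically induced tumors. Gm6916, 97.8% identical to Tma7 over 368 bases, spanned 4.2 to 44.4 CPM (median 29.7) in the engineered tumors and 0 to 2.69 CPM (median 0) in the chemically induced tumors. The parent genes did not pass the test (log2 fold changes 0.62 for Rpl29, 0.47 for Rpl3 and 0.10 for Tma7, adjusted p = 0.0512, 0.258 and 0.822). Estimated counts of near-identical copies depend on a few differing bases, so these pseudogene values are uncertain. For the 3 copies named, 005 replicate 3 had the lowest level of the 6 engineered tumors.

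Several programs that differ among gliomas did not divide by side. Of 18 oligodendrocyte progenitor genes tested, 7 were called higher in the engineered lines and 0 in the chemically induced lines, against 2.2% and 2.85% of all genes, with a median of −1.32, but 0 agreed, and 1 agreed without 005 replicate 2. Olig2, the factor of the oligodendrocyte lineage, had means of 216 ± 96.1 CPM in Mut3 (SD, n = 3), 14.7 ± 6.39 CPM in 005, 36.2 ± 4.44 CPM in GL261 and 3.49 ± 2.26 CPM in CT2A (log2 fold change −2.32 ± 0.34 (SE), adjusted p = 0.00129), so GL261 was above 005. The list median was −1.60 between CT2A and 005 and 0.18 between GL261 and 005.

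Neuron genes had a median log2 fold change of 1.03, with 1 of 18 called higher (Tubb3) and 0 lower. Over all genes tested, 2.85% and 2.2% were called in these directions. Without 005 replicate 3, 14 of the 18 were called higher and 5 of 12 myelinating oligodendrocyte genes, against 0 of 12 with it (edgeR, 5 at an unadjusted p under 0.05). Of all 18300 genes tested without 005 replicate 3, 999 were called higher in the chemically induced lines. Brain cell markers therefore moved between the sides in a way that depended on this tumor. None of the agreeing genes is on the neuron or myelin lists. Of 11 MHC class II genes, 0 were called by edgeR, DESeq2 or limma on log2(TPM + 1), and 1 had an unadjusted p under 0.05. Of 40 cell cycle genes, edgeR called 0 and 5 had an unadjusted p under 0.05, while DESeq2 called 1 lower in the chemically induced lines. Of 20 endothelial genes, edgeR called 0 and 8 had an unadjusted p under 0.05, while DESeq2 and limma on log2(TPM + 1) each called 1 lower. Without 005 replicate 3, edgeR called 4 cell cycle genes and 3 endothelial genes higher in the engineered lines, against 530 of all 18300 genes tested.

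Among the genes named for the lesions of the lines, Trp53, Nf1, Hras and Akt1 did not pass the test between the sides. Trp53 had means of 61.9 ± 7.48 CPM in CT2A (SD, n = 3), 35.9 ± 10.7 CPM in GL261, 18.2 ± 3.08 CPM in 005 and 60.4 ± 23.2 CPM in Mut3 (log2 fold change 0.51 ± 0.23 (SE), adjusted p = 0.213). For Nf1 and Akt1 the log2 fold changes were −0.25 and −0.02 (adjusted p = 0.611 and 0.98), and the sign for Akt1 was the same in 16 of the 23 alternatives. For Hras the log2 fold change was −0.73 ± 0.32 (SE, adjusted p = 0.204), and 005, which carries activated H-ras, had 11, 8.93 and 15.7 CPM. RNA from the whole tissue does not show which copy of a gene was read.

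The 5 called genes with the widest difference between lines of the same side show how a side call can come from 1 line. Pet2, Gtsf1 and 4930550L24Rik were high in GL261, with 85.8, 76.4 and 100.2 CPM, 154, 88.6 and 82 CPM and 139, 87.6 and 91 CPM, and at most 1.07 CPM in any tumor of the other 3 lines. Platr3, a noncoding RNA, was high in Mut3, at 20.5, 48.8 and 44.8 CPM, and reached at most 2.59 CPM elsewhere. Gng10 was at 0 in all 3 Mut3 tumors and in 1 naïve brain, and at 9.58, 2.9 and 1.71 CPM in 005. Their side fold changes were 4.39, 4.18, 3.70, −2.14 and 4.79 on the log2 scale (adjusted p = 0.00244, 0.00139, 0.00028, 0.0175 and 0.0337).

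Naïve brain gave the background for both sets. For 71 of the 75 genes higher in the chemically induced lines, naïve brain was nearer to the engineered lines in log2 CPM. Against naïve brain, the median log2 fold change of these genes was 3.25 for CT2A and 3.43 for GL261, but 0.47 for 005 and 0.22 for Mut3. They were called above naïve brain for 64 genes in CT2A and 61 in GL261 (background 19% and 14.6%), and for 16 in 005 and 13 in Mut3 (background 11.6% and 17.9%). These counts share tumors with the comparison that chose the genes and are given as a description.

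For the 50 genes higher in the engineered lines, naïve brain was nearer to the chemically induced lines for 28 and to the engineered lines for 22. Their median log2 fold changes against naïve brain were 1.13 in 005, 2.03 in Mut3, −1.13 in CT2A and −0.76 in GL261. They were called above naïve brain for 17 genes in 005 and 28 in Mut3, and below it for 20 in CT2A and 12 in GL261 (background for lower levels 20.2% and 7.77%). No agreeing gene of this set was called below naïve brain in 005 or Mut3, where the backgrounds were 1.05% and 19.8%. The set higher in the chemically induced lines thus lay mostly above naïve brain, whereas the set higher in the engineered lines was divided.

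Within a side, the agreeing genes were not always at one level. Among the 75 genes, 6 differed between CT2A and GL261 past the threshold, 2 higher in CT2A and 4 higher in GL261, and 22 differed between 005 and Mut3, 15 higher in 005 and 7 in Mut3. Among the 50 genes, 4 differed between CT2A and GL261, all higher in GL261, and 5 between 005 and Mut3, 1 higher in 005 and 4 in Mut3. Over all genes tested, 7.77% differed between CT2A and GL261 and 19.8% between 005 and Mut3. The CT2A and GL261 counts of both sets were near that background. Of the 75 genes, 57 are protein coding (76%), and of the 50 genes 33 (66%), against 82.4% of all genes tested. In 3 of the 75 genes the lower side had fewer than 3 counts in all 6 tumors, and in 7 of the 50, so that fold changes of these genes are not given.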

How the data were processed

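RNA sequencing of whole tissue from 3 naïve brains and 12 tumors was analysed. Per the submitters' processing notes, STAR 2.4.2a, Salmon, DESeq2 1.18.1 and the mm10 build were used. Their roles, the annotation release and the use of strand in counting are not given in the sources used here. The authors deposited a table of expected counts per gene (estimated, not whole numbers) and a table of TPM, the authors' values scaled for transcript length and library size. For 4644 genes, TPM was reproduced from the counts by 1 factor per gene and 1 per sample, with a largest log2 residual of 9.61e-10. All columns were matched to a sample, and 0 columns belonged to other samples.

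Expected counts were rounded to whole numbers. Of 46679 genes, 17481 passed the edgeR filter on low counts. The counts of all 15 samples were scaled by TMM and fitted with the edgeR 4.0.16 quasi-likelihood test (R 4.3.3), 1 mean per group, and the mean of CT2A and GL261 was set against the mean of 005 and Mut3. A gene was called when p, adjusted by Benjamini-Hochberg, was under 0.05 and the log2 fold change was 1 or more in either direction. A gene agreed if it was called, all 4 differences between lines had the same sign and were 1 or more on the log2 scale, and the 6 tumors of each side did not overlap. The fits were also run on simulated counts with the same planted change in both lines of a side. That simulation held no other differences between lines, so it cannot show how the rule behaves where the lines of a side differ. DESeq2 1.42.0 and limma 3.58.1 (on log2(TPM + 1), log2(TPM + 0.1) or line means) were alternatives, besides other filters, scalings and left-out tumors. P-values of 1 fit share one estimate of the spread over the 15 samples.

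Gene symbols and positions were taken from GENCODE M21 (GRCm38), which matched 46269 of the 46679 gene IDs. Transcripts were compared with BLAST+ 2.17.0 at a minimum of 200 bases and 90% identity. Promoters came from RefSeq. Named genes were the genes of the lines' lesions, the 15 agreeing genes per direction whose mean log2 CPM was 3 or more in both lines of the higher side and the largest weakest difference between lines, every agreeing gene on a list, up to 4 further members per list, and the 5 called genes with the widest difference within a side. Some genes that the rule names are not reported here. Genes beyond this rule were chosen after their values were seen. The sides, gene lists and tests were chosen with earlier results of these data known.

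Replicate numbers 1 to 3 recur in every line, but nothing states that mice with the same number belong together. Correlations of deviations between tumors with the same number ranged from −0.33 to 0.26, so the numbers were not taken to pair the tumors.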

Additional observations from a re-analysis of the deposited data

Results flagged for a closer look

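Of 20 summed levels looked at, the 10 gene lists on each side, 4 had an extreme tumor whose gap to the nearest other tumor was large against the range of its side. How many flags would arise by chance is not known, because each side mixes 2 lines and the lists share the same tumors. All 4 were engineered tumors of the 005 line. In 005 replicate 3 the summed neuron genes reached 5491 CPM, with 976 CPM in the next tumor, and the summed myelinating oligodendrocyte genes reached 5181 CPM, with 716 CPM in the next. In 005 replicate 2 the summed T and NK cell genes reached 1297 CPM, with 446 CPM in the next tumor, and the summed interferon-stimulated genes reached 12388 CPM, with 2509 CPM in the next. The 53 named genes were looked at by another rule and not for extreme tumors. For 0 of them was every tumor of one side above, and every tumor of the other side below, the range of naïve brain.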

How the results depend on the processing

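Against 884 called genes, 75 genes higher in both chemically induced lines and 50 higher in both engineered lines, DESeq2 called 1382 genes, and 77 and 60 genes agreed. When only genes with 10 counts or more in each sample were tested, the numbers were 418, 27 and 15. That filter left 29 of the 75 and 14 of the 50 genes tested, of which 27 and 14 still agreed. limma on log2(TPM + 1) gave 405, 31 and 17. A log2 fold change of at least 2 gave 427, 27 and 21, and no fold threshold gave 120 and 99 agreeing genes. limma on the 4 line means, which leaves 2 samples a side, gave 0, 0 and 0, with 405 genes at an unadjusted p under 0.05. Leaving out 1 tumor at a time gave 597 to 1529 called genes, 66 to 131 genes higher in both chemically induced lines and 41 to 95 higher in both engineered lines. The highest counts came without 005 replicate 3 (1529, 121 and 95) and without 005 replicate 2 (131 and 58 agreeing genes). Unless shown by the setting itself, the cause was not tested.

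With the replicate number as a block the counts were 693, 73 and 43. The tumors share only a number, and 2 of the 12 were nearest to a tumor with their own number. For named genes, 103 results lost their call. Akt1, which was not called, changed sign in 7 of the fits that left out 1 tumor, with a range of −0.17 to 0.18 on the log2 scale. Of the 18 called and 11 agreeing interferon-stimulated genes, 0 and 0 were left with line means. The rule was met by 7 at 10 counts or more in each sample, where Ifih1, Irf7, Isg15 and Rsad2 were not tested. At a log2 fold change of 2 it was met by 6. Without 005 replicate 2, 35 genes of the list were called and 18 agreed, against 643 of 18308 and 131 over all genes. These counts were added after the data were seen. Without a filter on low counts the median of all genes moved by −0.10 on the log2 scale, and with log2(TPM + 0.1) by −0.12, with 48% of calls higher in the chemically induced lines against 56.4%. Total counts of 5380395 to 13130158 per tumor limit what can be seen of genes near 3 counts.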
